A study of Rattus norvegicus with 18 samples.

Results

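The genes described here encode the anchorage of the oral epithelium to its basement membrane. They are Lama3, Lamb3 and Lama5 (laminin chains), Itga3, Itga6 and Itgb4 (integrin chains that bind laminin), Col17a1 and Dst (hemidesmosome components) and Col7a1 (the collagen of anchoring fibrils). Members were chosen by name: every probe set whose array annotation named 1 of these 9 genes and no other was taken, which gave 18 probe sets for 9 genes of the 14217 genes that the array measured under a probe set of their own. For each gene the probe set with the highest mean log2 signal over all arrays stands for the gene, and the others are given beside it.

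The 18 arrays (Affymetrix rat genome arrays) came from tongues of male Sprague Dawley rats, with no genetic modification named in the labels. Rats of the experimental group drank water with 0.002% 4-nitroquinoline oxide (4NQO, a carcinogen that forms DNA adducts) and were killed between week 14 and week 22, when lesions of dysplasia or of squamous cell carcinoma (SCC) had become visible. Control rats drank distilled water and gave the normal samples. Each stage gave 3 samples of epithelia and 3 of fibroblasts, and each sample held tissue of 3 rats by the study's account, so that a sample is a pool and not a single animal. The ages of the rats at death were not used here, and dysplasia and SCC samples share their exposure to 4NQO but not a fixed time.

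A basement membrane is a sheet of laminin and type IV collagen on which basal keratinocytes sit. Hemidesmosomes rivet the cells to it: the integrin of Itga6 and Itgb4 binds laminin-332 (which holds the chains of Lama3 and Lamb3) outside the cell, Col17a1 spans the membrane beside it, and the epithelial form of Dst together with plectin links the complex to keratin filaments. The integrin of Itga3 and Itgb1 binds the same laminin and takes part in adhesion and migration, while Col7a1 forms the fibrils that tie the sheet to the connective tissue underneath. The sheet is also the plane at which the layers were parted, since the study split the tissue with dispase, an enzyme that cleaves type IV collagen and fibronectin, before it digested the connective tissue with collagenase and kept the cells that adhered to a dish.

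The paper reports that the purity of both cell preparations was checked and found good, and shows staining for E-cadherin, pan keratin and vimentin. On the arrays, the fibroblast samples nevertheless held RNA of keratinocyte genes. Krt5, a keratin of basal keratinocytes, was bright in all of them, at log2 signals of 13.55, 13.50 and 12.40 in those of normal tissue, 13.67, 13.69 and 13.37 in those of dysplasia and 13.68, 13.58 and 13.60 in those of SCC. All 8 basal keratinocyte markers were measured, and their mean log2 signal in fibroblast samples was 10.56 ± 0.53 (SD, n = 3) for normal tissue, 11.03 ± 0.24 for dysplasia and 11.12 ± 0.12 for SCC, against 10.93 to 11.20 in the 3 epithelial groups. The 9 measured markers of all epithelia followed the stages in the same order in fibroblasts, from 9.40 ± 1.12 through 9.88 ± 0.29 to 10.29 ± 0.41, and the third sample of each stage was the lowest, with normal fibroblasts 3 at 8.11. In the other direction, the 13 fibroblast markers averaged 6.65 ± 1.11 in normal, 6.99 ± 0.62 in dysplasia and 9.27 ± 2.16 in SCC epithelia, where SCC epithelia 2 reached 11.45 against 11.70 to 13.03 in fibroblasts. Normal epithelia 2 had the highest fibroblast markers of its group, at 7.93 against 6.04 and 5.99. Its mean over the 9 members was the lowest, at 9.35 against 9.74 and 9.68. The part of stromal RNA in that low mean was not tested. In tissue of mixed cells, fewer cells of a type and less RNA per cell cannot be told apart. The share of the members' RNA in the fibroblast samples that keratinocytes supplied was not tested.

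**Figure D1:**
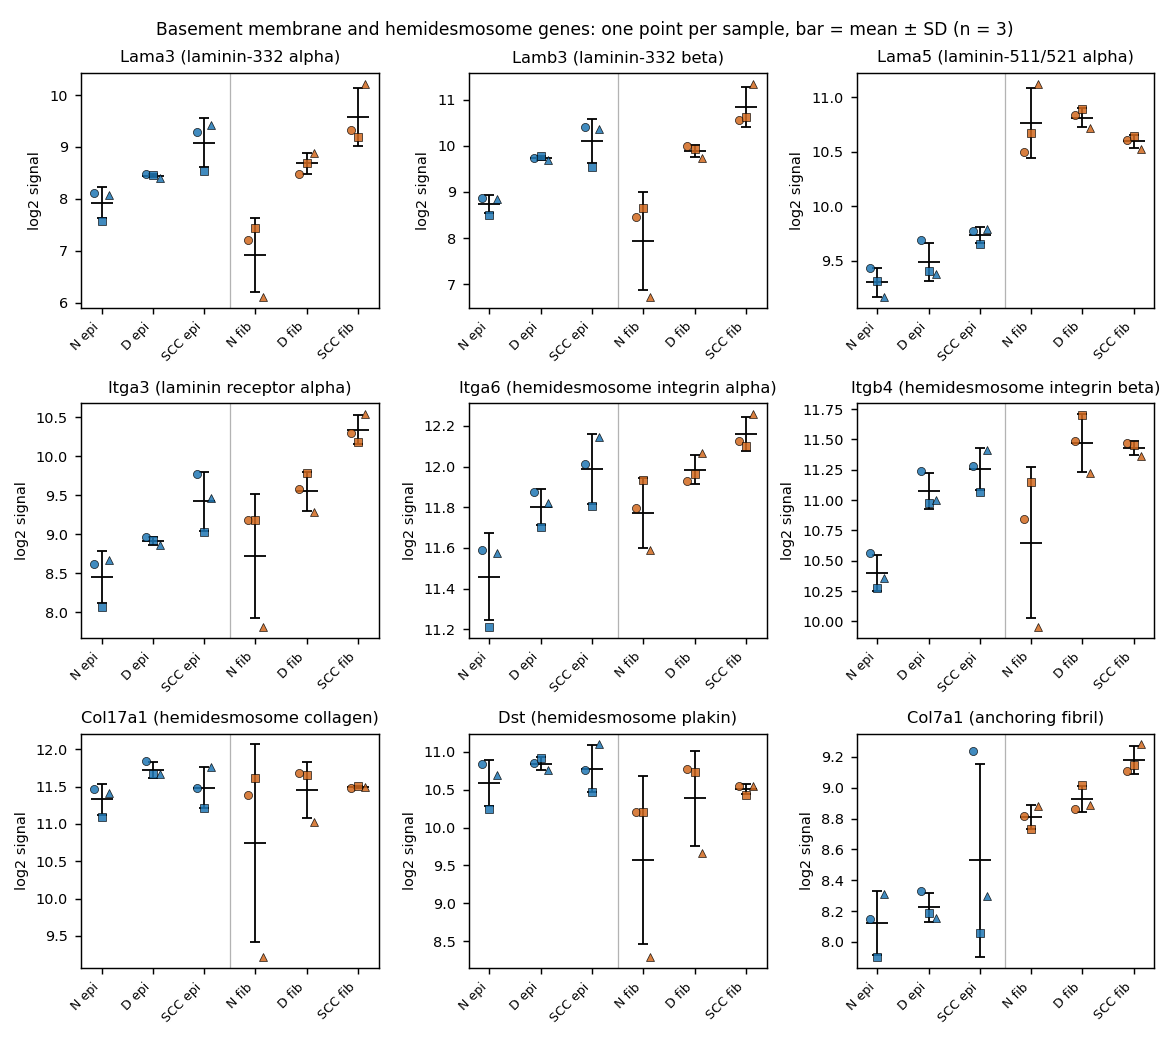
Log2 signal (vertical axes, scaled separately for each gene) of the 9 genes in the 6 groups, with blue points for epithelia, orange points for fibroblasts, circles, squares and triangles for samples 1, 2 and 3, and bars for mean ± SD (n = 3). The means of Lama3 and Lamb3 follow the order normal, dysplasia, SCC in both layers. Normal fibroblasts 3 (the triangle of its group) lies far below its group in Col17a1 and Dst, and also below it in Lama3, Lamb3, Itga3 and Itgb4.

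In the epithelia, the members were higher in SCC than in normal tissue, with the laminin-332 chains and the integrin chains in front. 6 of the 9 members rose (limma, Benjamini-Hochberg adjusted p under 0.05 over 31042 probe sets), none fell, and 29.9% of all probe sets were called in this comparison in either direction, 12.6% as higher. The median log2 fold change of the members was 0.53, against -0.09 over all probe sets. In 6 members every SCC sample exceeded every normal sample, as in 18.4% of all probe sets. By the methods' t-test, adjusted over all probe sets, 1 member passed (Itgb4). Between normal tissue and dysplasia 2 members rose, Lamb3 and Itgb4, with 14.5% of all probe sets called. Between dysplasia and SCC no member was called (0.0258% of all probe sets), although 2 members had an unadjusted limma p under 0.05 (14.2% of all probe sets). The methods' t-test also called 0 members there.

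Macrophage markers, and some of the neutrophil markers, also rose over the stages in the epithelia. Of 10 macrophage markers, 7 rose in SCC against normal epithelia (median 2.87), and their mean log2 signal ranged from 5.79 to 5.94 in normal tissue, 6.30 to 7.07 in dysplasia and 7.01 to 9.38 in SCC, highest in SCC epithelia 2. Of 7 neutrophil markers, 2 rose and 1 fell (median 0.10), and their mean ranged from 6.10 to 6.42, from 6.89 to 7.22 and from 7.51 to 8.07. The largest rises were those of S100a8 and S100a9. S100a8 measured 7.91, 8.51 and 8.27 in normal epithelia and 12.26, 12.61 and 11.97 in SCC. S100a9 measured 5.39, 6.45 and 5.30 in normal epithelia and 12.37, 12.94 and 12.14 in SCC. Mmp8, Camp, Cxcr2 and Csf3r overlapped between these groups, and Np4 was lower in SCC. Within SCC the order was another: SCC epithelia 2 had the highest mean of both lists, and the lowest mean over the 9 members (9.93 against 10.44 and 10.42). The part of macrophages and neutrophils in the members' values was not tested.

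Lama3 encodes the alpha chain of laminin-332. Its log2 signal was 8.11, 7.58 and 8.08 in normal epithelia, 8.48, 8.46 and 8.41 in dysplasia and 9.28, 8.54 and 9.43 in SCC. The 3 stages did not overlap, and SCC epithelia 2, the sample rich in fibroblast markers, was the lowest of its group. SCC exceeded normal tissue 2.24-fold (log2 1.16 ± 0.23, SE; adjusted p = 0.00689), whereas the steps from normal to dysplasia (log2 0.53 ± 0.23, adjusted p = 0.165) and from dysplasia to SCC (log2 0.63 ± 0.23, adjusted p = 0.286) did not pass.

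Lamb3 encodes the beta chain of the same laminin. It measured 8.86, 8.50 and 8.86 in normal epithelia, 9.74, 9.78 and 9.69 in dysplasia and 10.41, 9.55 and 10.37 in SCC. Every dysplasia sample lay above every normal sample, and the SCC samples lay on both sides of dysplasia. The rise was 1.996-fold in dysplasia (log2 1.00 ± 0.22, adjusted p = 0.0204) and 2.58-fold in SCC (log2 1.37 ± 0.22, adjusted p = 0.00258). The call in dysplasia was lost without normal epithelia 1 or 2 or without any of the 3 dysplasia samples (adjusted p from 0.0507 to 0.0705), with log2 values from 0.88 to 1.06.

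**Figure D2:**
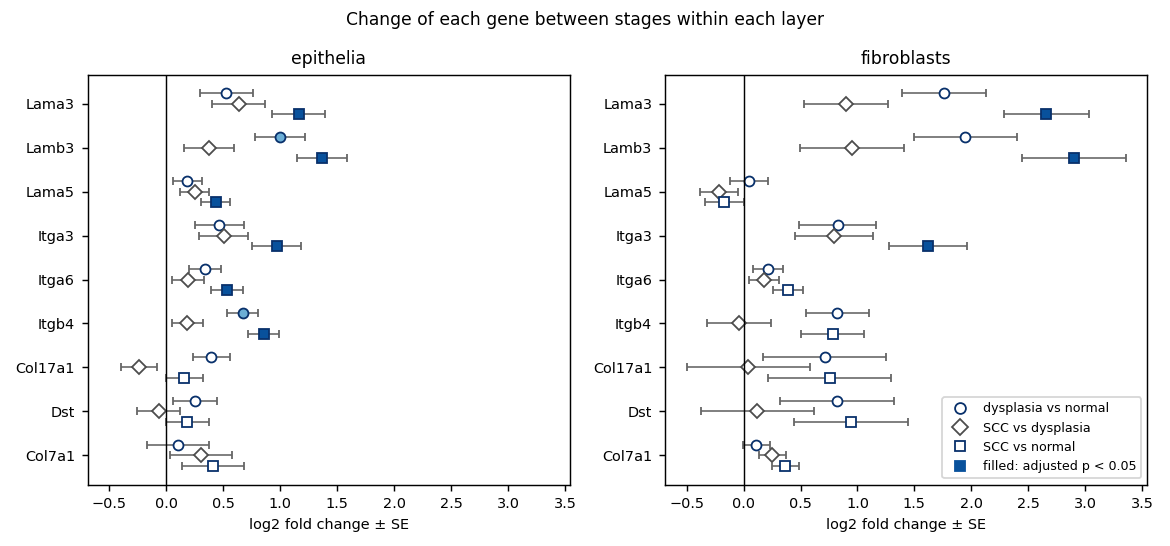
Log2 fold change ± SE (horizontal axis) of each gene between stages, for epithelia at the left and fibroblasts at the right; circles stand for dysplasia against normal, diamonds for SCC against dysplasia, squares for SCC against normal, and filled symbols passed an adjusted p of 0.05. 6 squares are filled in epithelia and 3 in fibroblasts, where the bars are longer; Lama5 in fibroblasts lies at -0.17, and at 0.44 when arrays were aligned on spiked controls.

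The integrin chains followed. Itgb4, which pairs only with Itga6 and carries the long tail that contacts plectin, measured 10.57, 10.28 and 10.36 in normal epithelia, 11.24, 10.97 and 11.002 in dysplasia and 11.28, 11.07 and 11.42 in SCC. The normal samples lay apart below the others, and dysplasia and SCC overlapped. It rose 1.59-fold in dysplasia (log2 0.67 ± 0.14, adjusted p = 0.0152), a call lost without normal epithelia 2 or 3 or dysplasia epithelia 3 (adjusted p from 0.0515 to 0.0519), and 1.81-fold in SCC (log2 0.85 ± 0.14, adjusted p = 0.0025).

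Itga3, whose integrin signals from focal contacts as well as from the basement membrane, measured 8.61, 8.06 and 8.67 in normal epithelia, 8.96, 8.92 and 8.86 in dysplasia and 9.77, 9.02 and 9.46 in SCC. The 3 stages did not overlap. SCC exceeded normal tissue 1.96-fold (log2 0.97 ± 0.21, adjusted p = 0.0103), while the difference of dysplasia from normal tissue (log2 0.46 ± 0.21, adjusted p = 0.178) and of SCC from dysplasia (log2 0.50 ± 0.21, adjusted p = 0.337) did not pass. Itga6, the partner of Itgb4, measured 11.59, 11.21 and 11.58 in normal epithelia and 12.01, 11.80 and 12.14 in SCC, with no overlap, and rose 1.44-fold (log2 0.53 ± 0.14, adjusted p = 0.0221). That call was lost without normal epithelia 2 or SCC epithelia 3 (adjusted p = 0.0653 and 0.066). In dysplasia Itga6 lay 0.34 ± 0.14 (log2) above normal tissue (adjusted p = 0.137).

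Lama5 belongs to the laminins that most basement membranes contain. It measured 9.44, 9.31 and 9.17 in normal epithelia and 9.77, 9.65 and 9.79 in SCC. The ranges did not touch, and the rise was the smallest of the 6 (1.35-fold, log2 0.43 ± 0.12, adjusted p = 0.0297). It did not pass without normal epithelia 2 or 3 or SCC epithelia 1 or 3 (adjusted p from 0.0625 to 0.0999).

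The remaining members, Col17a1, Dst and Col7a1, were not called between stages in the epithelia by their chosen probe sets. Other probe sets of Dst differed and are given below. Col17a1 had its highest epithelial values in dysplasia, at 11.66 to 11.84 against 11.10 to 11.47 in normal tissue (log2 difference 0.40 ± 0.16, adjusted p = 0.135). In SCC it ranged from 11.21 to 11.76, and the difference from normal tissue was 0.16 ± 0.16 (adjusted p = 0.493). The chosen probe set of Dst differed by 0.18 ± 0.19 between SCC and normal epithelia (adjusted p = 0.491), and its 3 groups overlapped. Col7a1 measured 8.15, 7.90 and 8.31 in normal epithelia and 9.24, 8.06 and 8.30 in SCC. One SCC sample stood apart from the other pair, and the difference of 0.41 ± 0.27 did not pass (adjusted p = 0.279).

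Among the genes called in both layers in SCC, the promoters of Lama3, Lamb3 and Itga3 are shown because these members moved together. The sequences are the 250 bases before the annotated start in RefSeq's table for rat build GRCr8, written 5′ to 3′ on the gene's strand: chr18:3952517-3952766 (+) for Lama3, chr13:107362303-107362552 (+) for Lamb3 and chr10:80518902-80519151 (-) for Itga3. For Lama3 and Itga3 the start lies inside the gene's annotated span, so the genes have other starts as well. Capitals mark matches on either strand to an AP-1 motif (TGANTCA), a CRE motif (TGACGTCA) and a GC box (GGGCGG). No printed window held matches to more than 1 of these motifs.
Lama3: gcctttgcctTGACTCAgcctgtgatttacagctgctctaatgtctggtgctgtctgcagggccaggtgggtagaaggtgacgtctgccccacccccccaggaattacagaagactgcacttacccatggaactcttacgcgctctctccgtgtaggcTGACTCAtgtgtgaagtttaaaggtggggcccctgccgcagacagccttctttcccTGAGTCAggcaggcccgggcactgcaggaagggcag
Lamb3: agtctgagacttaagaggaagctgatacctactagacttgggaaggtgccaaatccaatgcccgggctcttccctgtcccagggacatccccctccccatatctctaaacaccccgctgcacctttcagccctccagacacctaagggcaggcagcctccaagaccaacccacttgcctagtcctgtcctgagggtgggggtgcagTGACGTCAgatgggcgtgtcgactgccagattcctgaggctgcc
Itga3: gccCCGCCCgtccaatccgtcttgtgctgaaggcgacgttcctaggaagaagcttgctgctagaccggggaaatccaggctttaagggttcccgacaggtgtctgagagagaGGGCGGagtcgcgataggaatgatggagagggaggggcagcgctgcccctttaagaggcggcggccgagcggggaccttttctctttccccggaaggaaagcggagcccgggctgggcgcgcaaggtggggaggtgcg
The Lama3 window held 3 AP-1 matches, which began 240, 92 and 36 bases before the start. The Lamb3 window held 1 CRE match, 44 bases before the start, and the Itga3 window held 2 GC boxes, at 247 and 138 bases. RefSeq's table gave windows for 7 of the 9 members. Of these, 1 held an AP-1 match, 1 a CRE match and 4 a GC box (Lama5, Itga3, Col7a1 and Dst), whereas over all 33469 promoters of the table the shares were 6.3%, 1.6% and 30.5%. A match describes letters in a window and not a bound factor.

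In the fibroblast samples, the laminin-332 chains and Itga3 showed the largest differences of all members in either layer. 3 of the 9 members rose between normal tissue and SCC and none fell, with 15.2% of all probe sets called in either direction and 7.82% as higher, and the members' median log2 fold change was 0.78 against -0.05 over all probe sets. In 7 members every SCC sample exceeded every normal sample, as in 17.8% of all probe sets. By the methods' t-test 0 members passed here (adjusted p = 0.080 for Lama3, 0.0971 for Lamb3 and 0.133 for Itga3). No member was called between normal tissue and dysplasia (0.171% of all probe sets) or between dysplasia and SCC (1.85%). At an unadjusted limma p under 0.05 there were 4 members in the first of these (18% of all probe sets) and 2 in the second (17.4%), and the methods' t-test called 0 in both.

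Lama3 measured 7.21, 7.44 and 6.11 in normal fibroblasts, 8.48, 8.69 and 8.88 in dysplasia and 9.34, 9.19 and 10.22 in SCC. The stages did not overlap. The difference between SCC and normal tissue was 6.32-fold (log2 2.66 ± 0.37, adjusted p = 0.00458), and 4.77-fold without normal fibroblasts 3. Dysplasia lay 1.76 ± 0.37 above normal tissue (adjusted p = 0.107) and SCC 0.90 ± 0.37 above dysplasia (adjusted p = 0.257).

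Lamb3 measured 8.47, 8.64 and 6.72 in normal fibroblasts, 10.01, 9.93 and 9.75 in dysplasia and 10.56, 10.63 and 11.34 in SCC, again without overlap. SCC exceeded normal tissue 7.46-fold (log2 2.90 ± 0.46, adjusted p = 0.00728), and 4.89-fold (log2 2.29, adjusted p = 0.00203) without normal fibroblasts 3. The difference of dysplasia from normal tissue was 1.95 ± 0.46 (adjusted p = 0.121) and that of SCC from dysplasia 0.95 ± 0.46 (adjusted p = 0.322). Over all 18 arrays Lama3 and Lamb3 ran together (Pearson r = 0.98, a description over samples that share groups and layers).

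Itga3 measured 9.18, 9.18 and 7.81 in normal fibroblasts, 9.57, 9.78 and 9.29 in dysplasia and 10.30, 10.18 and 10.54 in SCC. Groups stood apart, and SCC exceeded normal tissue 3.06-fold (log2 1.62 ± 0.34, adjusted p = 0.019), and 2.23-fold without normal fibroblasts 3. The call was lost without SCC fibroblasts 1 (adjusted p = 0.0708) or 2 (adjusted p = 0.0637). In dysplasia the difference from normal tissue was 0.82 ± 0.34 (adjusted p = 0.256), and from dysplasia to SCC it was 0.79 ± 0.34 (adjusted p = 0.278).

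In the fibroblast samples, the group means of basal keratinocyte markers and of markers of all epithelia rose over the stages in the same order as these genes. The 13 measured suprabasal and cornified markers peaked in dysplasia instead, at 9.38 ± 1.10 in normal tissue, 11.16 ± 0.49 in dysplasia and 10.98 ± 0.82 in SCC. Of these, 4 rose between normal tissue and SCC (7.82% of all probe sets). Markers of all epithelia stood at 10.05 in normal fibroblasts 1 and 2, against 10.01 and 10.08 in dysplasia fibroblasts 1 and 2. Within stages the order varied. Dysplasia fibroblasts 3 had the lowest mean of the markers of all epithelia in its group (9.55). It had the highest Lama3 (8.88) but the lowest Lamb3 and Itga3 of that group. With the mean of the markers of all epithelia as a covariate, the differences between SCC and normal fibroblasts were 2.36 for Lama3 (adjusted p = 0.0158), 2.29 for Lamb3 (adjusted p = 0.015) and 1.10 for Itga3 (adjusted p = 0.0319). With the third sample of every stage left out, which kept samples 1 and 2 of each group, they were 1.94 (adjusted p = 0.000357), 2.04 (adjusted p = 0.000213) and 1.06 (adjusted p = 0.00122). Both the covariate and the samples left out were chosen after the data were seen, and the part of keratinocyte RNA was not tested. In SCC fibroblasts 3 the mean basal keratinocyte markers (10.99) and markers of all epithelia (9.81) were the lowest of the group. Single markers differed: Krt8 (10.43 against 8.62 and 8.94), Igfbp3 (12.63 against 11.72 and 11.66) and Ngfr were the highest of the group there, and Krt5 was not the lowest. Lama3, Lamb3 and Itga3 were the highest of all 18 arrays in SCC fibroblasts 3. That sample also held the most macrophage RNA of its group, with a mean over 10 markers of 11.64 against 9.76 and 9.86, while the median of that list between SCC and normal fibroblasts was -0.38 (0.23 with spiked controls).

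Neutrophil markers rose over the stages in these samples as well. Of 7 measured, 6 rose in SCC against normal fibroblasts (median 2.63), and their mean log2 signal ranged from 7.07 to 7.64 in the normal samples, from 8.14 to 8.47 in dysplasia and from 9.28 to 9.76 in SCC, with no overlap. Their part in the result was not tested. RNA integrity also moved: the signal of the actin control at the 3′ end exceeded that at the 5′ end by 1.20 (log2) in SCC fibroblasts, against 1.62 to 1.78 in the other groups, and the part of integrity in the result was not tested.

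**Figure D3:**
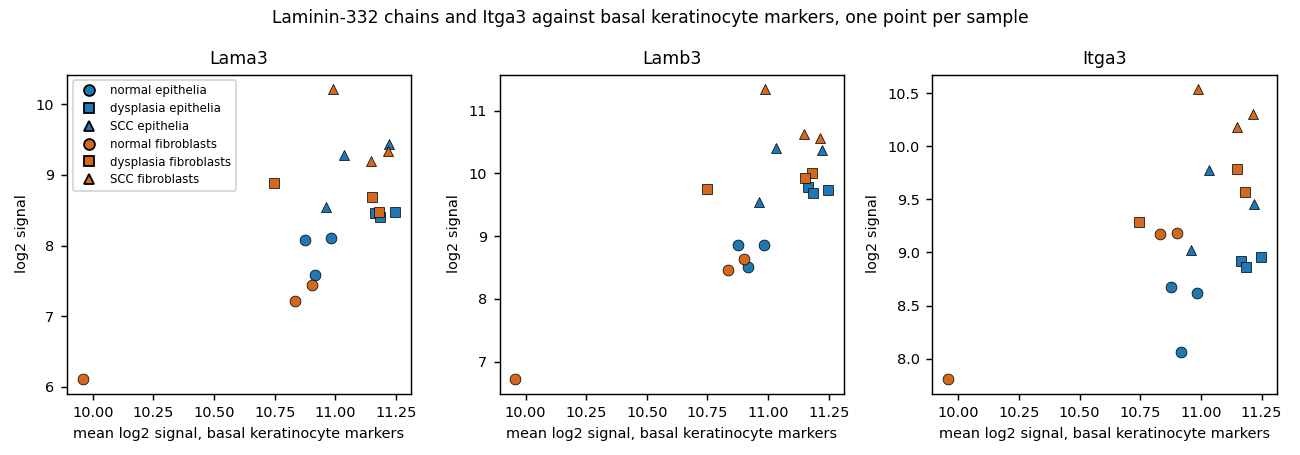
Log2 signal of Lama3, Lamb3 and Itga3 (vertical axes) against the mean log2 signal of 8 basal keratinocyte markers (horizontal axis), one point per sample, blue for epithelia and orange for fibroblasts, circles for normal, squares for dysplasia and triangles for SCC. SCC fibroblasts 3, at 10.99 on the marker axis, has the highest value of each gene, and normal fibroblasts 3, at 9.96, has the lowest.

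The other 6 members were not called between SCC and normal fibroblasts. Itgb4 measured 10.84, 11.15 and 9.95 in fibroblasts of normal tissue, 11.49, 11.70 and 11.22 in those of dysplasia and 11.47, 11.46 and 11.36 in those of SCC, with differences from normal tissue of 0.82 ± 0.28 in dysplasia (adjusted p = 0.193) and 0.78 ± 0.28 in SCC (adjusted p = 0.0842). Itga6 differed by 0.39 ± 0.13 (adjusted p = 0.0741) and Col7a1 by 0.37 ± 0.12 (adjusted p = 0.0661), both with every SCC sample above every normal sample. Col17a1 and Dst were uneven in normal fibroblasts, at 11.39, 11.61 and 9.21 and at 10.21, 10.20 and 8.29, and the log2 differences of SCC from normal tissue were 0.76 ± 0.54 (adjusted p = 0.354) and 0.94 ± 0.50 (adjusted p = 0.218). Lama5 differed by -0.17 ± 0.17 (adjusted p = 0.514), a sign that turned to 0.44 with arrays aligned on spiked controls.

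Lama5 had the largest difference between layers in normal tissue and dysplasia, and Itga3 in SCC, with arrays scaled as deposited. Lama5 measured 10.49, 10.67 and 11.12 in normal fibroblasts against 9.17 to 9.44 in normal epithelia. Normal fibroblasts 3, the highest, had the lowest mean keratinocyte markers of its group and the highest mean endothelial and fibroblast markers. Means over 8 endothelial markers were 9.84, 10.54 and 11.45 in normal fibroblasts 1, 2 and 3, the same order as Lama5. The part of each cell type was not tested. For Lama5, the log2 difference of epithelia from fibroblasts was -1.46 ± 0.15 in normal tissue (adjusted p = 5.69e-07), -1.32 ± 0.15 in dysplasia (adjusted p = 3.46e-06) and -0.86 ± 0.15 in SCC (adjusted p = 0.000316). With arrays aligned on spiked controls, these became -0.60, -0.20 and -0.55 and none was called (adjusted p = 0.0541, 0.504 and 0.123). That alignment moved the median of all genes in the comparisons of layers from 0.15 to 1.01 in normal tissue, from 0.10 to 1.22 in dysplasia and from 0.06 to 0.37 in SCC, so that a level between layers depends on how the arrays were scaled.

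In normal tissue 2 members were higher in epithelia and 3 lower, with 63.4% of all probe sets called; with spiked controls 7 were higher and 0 lower. Lama3 exceeded fibroblasts 2.003-fold (log2 1.00 ± 0.33, adjusted p = 0.0152), a call lost without normal epithelia 1 (adjusted p = 0.0519) or normal fibroblasts 3 (log2 0.60, adjusted p = 0.0938), and Dst exceeded them 2.03-fold (log2 1.02 ± 0.41, adjusted p = 0.0387), a call lost without normal epithelia 1 or 3 or normal fibroblasts 3 (adjusted p from 0.0895 to 0.246). Lamb3 differed by 0.80 ± 0.38 and did not pass (adjusted p = 0.082). Col7a1 (log2 -0.69 ± 0.22, adjusted p = 0.0115) and Itga6 (log2 -0.31 ± 0.13, adjusted p = 0.0486) were lower in epithelia, and both signs turned with spiked controls (0.17 and 0.54). The Col7a1 call was lost without normal epithelia 2 (adjusted p = 0.0527), and that of Itga6 was lost in 13 of the 18 fits that left out 1 sample.

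In dysplasia 2 members were lower in epithelia and none higher, with 50.4% of all probe sets called. Beside Lama5 this was Col7a1 (log2 -0.70 ± 0.22, adjusted p = 0.0141), which became 0.42 with spiked controls. In SCC 3 members were lower and none higher (38.3% of all probe sets). They were Lama5, Itga3 (log2 -0.92 ± 0.30, adjusted p = 0.026) and Col7a1 (log2 -0.65 ± 0.22, adjusted p = 0.0276). The calls of Itga3 and Col7a1 each ended in 4 fits that left out 1 SCC sample, among them SCC epithelia 2 (log2 -0.72 and -0.41, adjusted p = 0.104 and 0.14).

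The change itself was compared between layers. From normal tissue to SCC, the change of Lama3 was smaller in epithelia than in fibroblasts (log2 difference -1.50 ± 0.47, adjusted p = 0.0399), the 1 member called, with 16.5% of all probe sets called. This call was lost with the replicate number as a block (adjusted p = 0.0539) and in 10 of the 18 fits that left out 1 sample (adjusted p from 0.0501 to 0.0979). Those samples were normal epithelia 1 and 3, all dysplasia epithelia, SCC epithelia 2 and, among fibroblasts, normal 3, dysplasia 2, SCC 1 and SCC 3. Lamb3 differed the same way (log2 -1.53 ± 0.54, adjusted p = 0.0662) and Lama5 the other way by 0.60 ± 0.21 (adjusted p = 0.0588), and neither passed. No member was called for the step from normal tissue to dysplasia (4.13% of all probe sets; 1 member at an unadjusted limma p under 0.05, with 21.2% of all probe sets) or from dysplasia to SCC (0.651%; 1 member at an unadjusted limma p, with 12.9%).

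**Figure D4:**
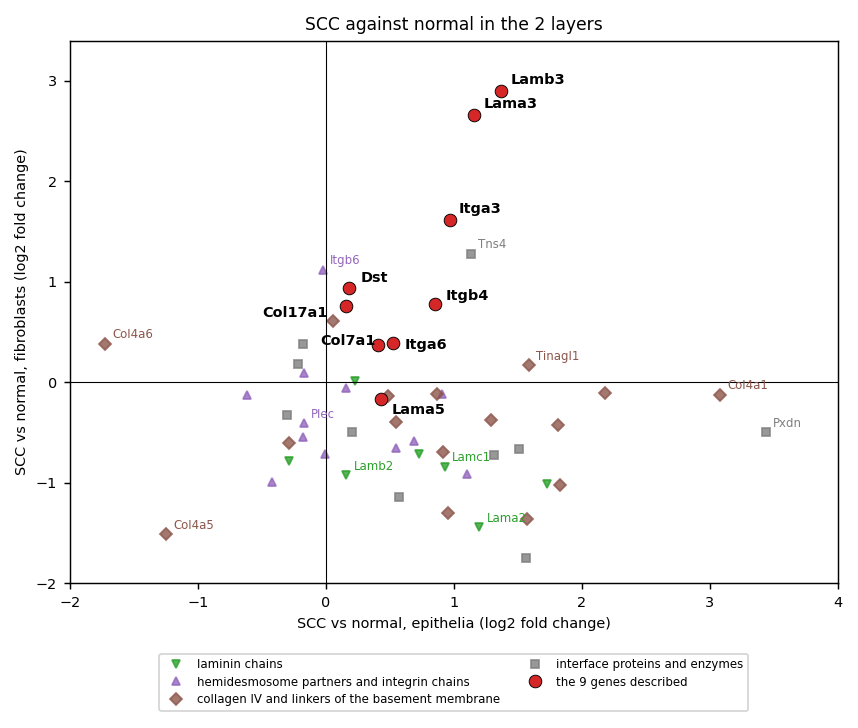
Log2 fold change of SCC against normal tissue in epithelia (horizontal axis) and in fibroblasts (vertical axis), with red circles for the 9 genes described and smaller symbols for related basement membrane genes. Lamb3 lies at 1.37 and 2.90 and Lama3 at 1.16 and 2.66, while Lama5 lies at 0.43 and -0.17 (0.44 in fibroblasts with arrays aligned on spiked controls).

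3 members had more than 1 probe set, and those of Dst disagreed. Dst, the plakin dystonin, makes an epithelial form and forms of nerve and muscle that differ in their exons. Among its 5 probe sets, the second in brightness measured 8.55, 7.57 and 8.51 in normal epithelia and 11.95, 11.86 and 12.03 in normal fibroblasts. Its log2 difference of epithelia from fibroblasts in normal tissue was thus -3.74, where that of the chosen probe set was 1.02, and the correlation of both over 18 arrays was -0.56. Normal fibroblast samples also exceeded normal epithelia in mean markers of Schwann cells (10.39 against 6.81), skeletal muscle (8.30 against 6.68) and smooth muscle and pericytes (10.00 against 6.07). The part of these cells was not tested. In SCC the second probe set in brightness rose in epithelia (log2 1.01 ± 0.26, adjusted p = 0.0196) and fell in fibroblasts (log2 -1.32 ± 0.29, adjusted p = 0.0206). The rise was lost without SCC epithelia 2 (log2 0.84, adjusted p = 0.0569), and the fall without normal fibroblasts 1 or 2 or SCC fibroblasts 1 or 2 (adjusted p from 0.0583 to 0.0867).

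The fourth of these probe sets fell in epithelia, from 6.81, 7.21 and 6.86 in normal tissue through 6.29, 5.80 and 6.12 in dysplasia to 5.68, 5.68 and 5.55 in SCC. The log2 differences from normal tissue were -0.89 ± 0.16 (adjusted p = 0.00869) and -1.32 ± 0.16 (adjusted p = 0.000673), and both calls were kept with each array left out in turn. The third in brightness followed the chosen one (r = 0.89), and the dimmest had the lowest signal of the 5, with a mean of 5.41. Which transcripts each probe set reads was not analysed here, so a level of Dst holds for its probe set alone.

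**Figure D5:**
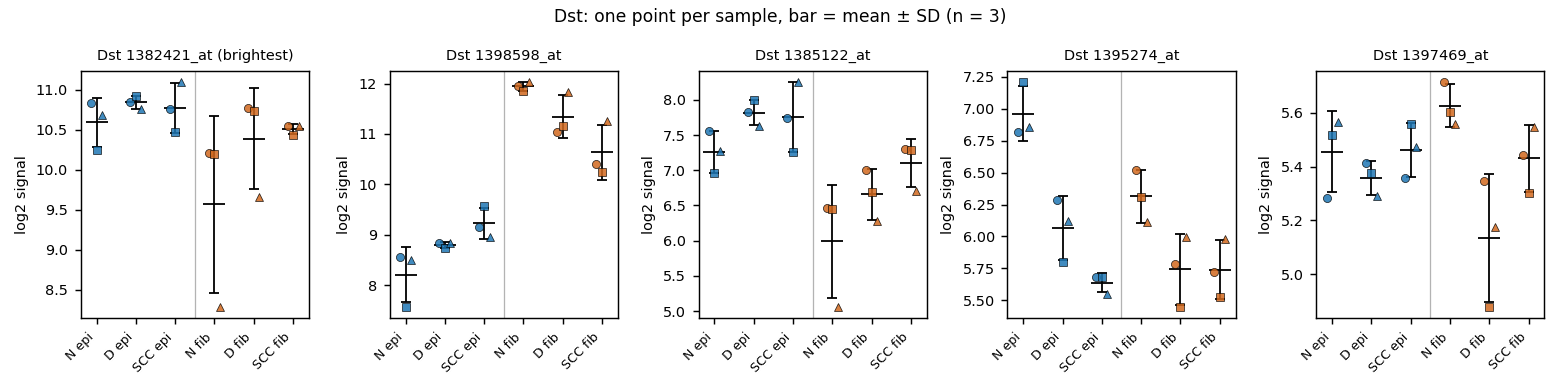
Log2 signal (vertical axes, scaled separately) of the 5 probe sets of Dst in the 6 groups, from the brightest at the left to the dimmest, with points for samples and bars for mean ± SD (n = 3); blue stands for epithelia and orange for fibroblasts. The brightest probe set is slightly higher in epithelia, the second panel is higher in all fibroblast samples, and the fourth declines over the stages in epithelia.

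Itga6 had 3 further probe sets. Of these, the second in brightness measured 6.54, 6.36 and 6.76 in normal epithelia, 7.09, 7.42 and 7.26 in dysplasia and 7.68, 7.40 and 7.72 in SCC. It rose in dysplasia (log2 0.70 ± 0.15, adjusted p = 0.0177, lost without normal epithelia 1 or 2 or dysplasia epithelia 2 or 3) and in SCC (log2 1.05 ± 0.15, adjusted p = 0.00155), the same direction as the chosen probe set. The others, with means of 7.53 and 5.22, were not called between stages. Both further probe sets of Lama5 were dim, with means of 4.41 and 3.93, and ran against the chosen one (r = -0.65 and -0.60). The dimmer of them was lower in SCC than in normal epithelia (log2 -0.48 ± 0.15, adjusted p = 0.0408). Between layers they opposed the chosen probe set, since the dimmer one was higher in epithelia in normal tissue (log2 0.46, adjusted p = 0.024) and in dysplasia (log2 0.51, adjusted p = 0.0177) and the other was higher in dysplasia (log2 0.85, adjusted p = 0.00244).

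Between SCC and normal epithelia 29.9% of all probe sets were called, 12.6% as higher and 17.3% as lower. Among related genes of the basement membrane, more rose than fell in SCC epithelia, and a pair of collagen chains fell. Col4a5 and Col4a6, whose chains form a type IV collagen network of epithelial basement membranes, fell in both lesions. Col4a6 measured 7.36, 6.97 and 7.15 in normal epithelia, 6.24, 5.82 and 6.08 in dysplasia and 5.42, 5.34 and 5.54 in SCC, with log2 differences from normal tissue of -1.12 ± 0.15 (adjusted p = 0.00373) and -1.73 ± 0.15 (adjusted p = 0.000191). For Col4a5 they were -0.88 ± 0.14 (adjusted p = 0.00661) and -1.25 ± 0.14 (adjusted p = 0.000587). Stages did not overlap for Col4a6, and both genes kept their calls in SCC under every alternative that was run on them. The filter for dim probe sets could not be run on Col4a6, whose mean log2 signal of 6.63 lay below it.

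Of the 16 measured genes of collagen IV and its linkers, 4 rose and 2 fell in SCC epithelia (median 0.94 over the list, -0.09 over all probe sets). Col4a1 and Col4a2, the chains of the common network, rose by 3.08 ± 0.84 (adjusted p = 0.024) and 2.18 ± 0.72 (adjusted p = 0.0498), and Tinagl1, a matricellular protein of basement membranes, by 1.58 ± 0.32 (adjusted p = 0.00649). Col4a1 was 9.65, 11.35 and 7.49 in SCC epithelia, the same order as the fibroblast markers, which stood at 9.22, 11.45 and 7.12. Without SCC epithelia 2 its difference was 2.16 (adjusted p = 0.0454), and without SCC epithelia 3 it was 4.08. Its call was lost without normal epithelia 1 or 3 or SCC epithelia 1 (adjusted p from 0.0596 to 0.0748). Col4a2 stood at 1.34 without SCC epithelia 2 and at 3.04 without SCC epithelia 3. The call of Col4a2 was lost in 8 of the 9 fits that left out 1 sample, all but that without SCC epithelia 3, and that of Tinagl1 in none. The part of stromal RNA in these rises was not tested.

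Of 7 further laminin chains, 1 rose in SCC epithelia, the gamma chain Lamc1 (log2 0.93 ± 0.27, adjusted p = 0.0299), which measured 10.71 in SCC epithelia 2 and 9.73 and 9.60 in the others. Of 12 integrin chains and partners, Itgb1, the partner of Itga3, rose (log2 0.69 ± 0.19, adjusted p = 0.0266) and Itga7, a laminin receptor of muscle, fell (log2 -0.62 ± 0.13, adjusted p = 0.0078). Plec, the plectin that ties Itgb4 to keratins, differed by -0.17 ± 0.15 (adjusted p = 0.424). Of 10 interface proteins and enzymes 5 rose, led by Pxdn, which crosslinks type IV collagen (log2 3.44 ± 0.91, adjusted p = 0.0214), Loxl2 (log2 1.56), Mmp14 (log2 1.51) and Bmp1, which processes laminin-332 and procollagen VII (log2 1.31, adjusted p = 0.00331). Pxdn measured 8.63, 10.90 and 6.58 in SCC epithelia, again in the order of the fibroblast markers, and leaving out SCC epithelia 2 brought its difference to 5.05-fold and leaving out SCC epithelia 3 to 22.6-fold. The difference of Loxl2 fell to 1.81-fold when SCC epithelia 2 was left out and rose to 4.10-fold without SCC epithelia 3. With normal epithelia 1 or 3 left out, Lamc1, Pxdn, Loxl2 and Mmp14 lost their calls, as did Itgb1 without normal epithelia 2 or 3 or SCC epithelia 2, whereas Itga7 and Bmp1 kept theirs with any 1 sample left out. Loxl2 also lost its call without normal epithelia 2, any dysplasia sample or SCC epithelia 1, and Mmp14 without normal epithelia 2. In dysplasia, where 14.5% of all probe sets were called, 1 gene of these 2 lists fell (Itga7, log2 -0.59) and 1 rose (Tns4, log2 0.74). The 7 laminin chains differed by -0.26 to 0.15 there, and none of them passed. The calls of Itga7 and Tns4 in dysplasia were lost in 4 and 5 of the 9 fits that left out 1 sample (adjusted p from 0.0524 to 0.113), with normal epithelia 1 and 3 and dysplasia epithelia 3 among the samples in both cases.

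Between SCC and normal fibroblasts 15.2% of all probe sets were called, 7.43% as lower. In SCC fibroblasts the called laminin chains outside the members were lower. Beside them, all 13 fibroblast markers had a negative log2 difference (median -0.64, 2 of them called), of which 8 stayed negative with spiked controls (median -0.03), with group means of 12.76 ± 0.24 in normal tissue and 12.02 ± 0.35 in SCC, and their part in the falls below was not tested. Of the 7 laminin chains 3 fell and none rose (median -0.84, against -0.05 over all probe sets): Lama2, the alpha chain of muscle and nerve basement membranes (log2 -1.44 ± 0.34, adjusted p = 0.0273), Lamb2 (log2 -0.93 ± 0.21, adjusted p = 0.0224) and Lamc3 (log2 -0.79, adjusted p = 0.041). The fibroblast samples also held markers of Schwann cells and skeletal muscle, with medians of -0.19 and -0.02 in this comparison (0.42 and 0.58 with spiked controls). Their part was not tested. With arrays aligned on spiked controls the median of all genes moved from -0.05 to 0.56, and the 3 chains stood at -0.83, -0.32 and -0.18 and were not called. The calls of these chains were also lost with the epithelial covariate (adjusted p from 0.0685 to 0.0939).

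Collagen IV and linkers had 3 genes that fell in SCC fibroblasts, Col4a5 (log2 -1.52 ± 0.41, adjusted p = 0.0404, and -0.91 with spiked controls), Fbln2 (log2 -1.36, adjusted p = 0.0247, and -0.76) and Dag1, the dystroglycan receptor of laminin (log2 -0.61, adjusted p = 0.0231, and 0.001 with spiked controls, which ended all 3 calls). Itgb6, an integrin chain of epithelia, rose by 1.12 ± 0.19 (adjusted p = 0.00986). It measured 6.38, 6.58 and 5.92 in normal and 7.46, 7.22 and 7.55 in SCC fibroblasts against 7.28 to 8.01 in the epithelia, and differed by -0.02 ± 0.20 between SCC and normal epithelia (adjusted p = 0.937; difference of the changes -1.14 ± 0.29, adjusted p = 0.0148). Of the interface genes, Tns4, a focal adhesion protein of epithelia, rose (log2 1.28, adjusted p = 0.0298) and Bmp1 fell (log2 -0.72, adjusted p = 0.0372, and -0.12 with spiked controls, not called). Plec differed by -0.41 ± 0.21 (adjusted p = 0.204), and by 0.20 with spiked controls. Itgb6 kept its call with any 1 sample left out. Each of the other 8 genes called here lost its call without normal fibroblasts 1, SCC fibroblasts 1 or SCC fibroblasts 2, and in 4 to 7 of the 9 such fits (adjusted p from 0.0506 to 0.146).

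The genes most like the members were found by Pearson correlation with the members' mean centred profile, among 9227 other genes with a mean log2 signal above 7. Over all 18 arrays they were Slc2a1, the glucose transporter GLUT1 (r = 0.93), Serpinb1a (0.93), Hint2 (0.92), Phb2 (0.92), Adam8 (0.91), Taf10 (0.91), Mrpl2 (0.90) and Ndufa3 (0.89). Over the 9 epithelial arrays they were Atp10d (0.97), Wdr33 (0.97), Ufl1 (0.96), Ctu2 (0.96) and Fasn (0.96). These are the highest of many correlations over few samples that share stages and layers, and they are given as a description.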

How the data were processed

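Gene expression was measured on 18 arrays, 3 in each of 6 groups, and samples were grouped by the stage and tissue layer in their labels. The deposited values were linear signal intensity per probe set, which the authors made with Affymetrix Expression Console, and the submitters' processing notes also name RMA. Their versions and the way the linear values were derived are not stated there. The table held 31099 probe sets, and array median intensities ran from 92.2 to 115.8. The intensities were used on the log2 scale with no further normalization, and 57 control probe sets were left out. The number of arrays limits the precision, and nothing in the labels says that replicates came from separate experiments, so p-values measure the spread between these samples.

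Tests used limma 3.58.1 in R 4.3.3 with Benjamini-Hochberg adjustment over 31042 probe sets and a threshold of 0.05. Stages were compared within each layer on its 9 arrays, and layers, and the difference in change between layers, on all 18. Comparisons of dysplasia and of SCC with normal tissue share their normal samples. The members and the lists of related genes and markers were chosen with earlier results of these data known. Of the related genes, the text names Plec always and, per list and comparison, up to 4 called genes with the largest change. Genes and probe sets beyond these were chosen after their values were seen. One further gene of the rule is not reported here. An exact permutation test of 3 against 3 cannot go below p = 0.1 and was not used.

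Replicate numbers are shared between groups. The deviations of same-numbered samples correlated above 0.1 in every pair only for dysplasia and SCC fibroblasts (from 0.32 to 0.59), so the numbers were not used as a block in the reported values. As alternatives, dim probe sets were filtered out, arrays were quantile normalized, and the further ones were alignment on spiked control probe sets, an offset before the log2, other fits and weights, the methods' t-test, a fold rule, other choices of probe set and leaving out samples. Promoters came from RefSeq's table for GRCr8. The scripts were tested on simulated data.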

Additional observations from a re-analysis of the deposited data

Results flagged for a closer look

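For the change from normal tissue to SCC, the difference between layers passed its test for Lama3, with a log2 difference of -1.50 (epithelia minus fibroblasts, limma, adjusted p = 0.0399). In groups of 3 samples no test for a sample far from the others was made.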

How the results depend on the processing

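The called comparisons of members, 22 in all, gave 585 values under the alternatives: 478 kept direction and call, 102 kept the direction but not the call, and 5 reversed. With 3 arrays a group, small differences were not detectable, and dim probe sets have little signal over background. The causes of the changes below were not tested. The covariate, the fits without the third samples and the swap of Dst probe sets were chosen after seeing the data.

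In epithelia, the count of 2 members in dysplasia became 0 with all 18 arrays in 1 fit, 1 by the methods' t-test and 0 by a fold rule (unadjusted p under 0.05 and a change of at least 2-fold, met by 2.08% to 30.3% of all probe sets between groups), and the count of 6 in SCC became 1 and 2 by the last pair. Of the fibroblast counts, 0 members in dysplasia against normal became 2 with spiked controls, 2 with all 18 arrays, 4 with array weights, 2 by the fold rule and 5 without the third samples. The 0 members in SCC against dysplasia became 5 with spiked controls, 3 with array weights and 3 without the third samples. The 3 in SCC against normal became 5 with dim probe sets filtered, 8 with spiked controls, 5 with log2(signal + 16), 5 with all 18 arrays, 6 with array weights, 0 by the methods' t-test and 5 without the third samples.

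Between layers, the count of 5 in normal tissue became 3 with only the groups compared, 2 by the methods' t-test, 2 with the mean of a gene's probe sets and 3 by the fold rule. The 2 in dysplasia became 6 with spiked controls, 4 with array weights, 1 with the mean of probe sets and 1 by the fold rule. The 3 in SCC became 1 with quantile normalization, 0 with spiked controls, 1 by the methods' t-test and 0 by the fold rule. For the difference of the change between layers, 0 in dysplasia against normal became 1 with array weights and 1 by the fold rule, and 0 in SCC against dysplasia became 4 with spiked controls and 1 with array weights. The 1 in SCC against normal became 4 with spiked controls, 3 with array weights, 0 with only the groups compared, and 2 with dim probe sets filtered, log2(signal + 16), a trended prior, 1 probe set per gene or the fold rule. With the replicate number as a block it became 0, and the block changed no other count by over 1.5 times.

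With 1 sample left out, the counts ran from 0 to 2 (dysplasia) and 4 to 6 (SCC) against normal epithelia, 0 to 0 between them, 0 to 0 and 2 to 3 against normal fibroblasts and 0 to 1 between SCC and dysplasia fibroblasts. Between layers they ran from 3 to 6 in normal tissue, 2 to 4 in dysplasia and 1 to 4 in SCC, and for the differences of change from 0 to 0, 0 to 0 and 0 to 3.

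Directions reversed as follows. With spiked controls, the log2 values became 0.44 (Lama5), 0.20 (Plec) and 0.001 (Dag1) for SCC against normal fibroblasts, 0.54 (Itga6) and 0.17 (Col7a1) between normal layers and 0.42 (Col7a1) between dysplasia layers. Between SCC and normal fibroblasts, Lama5 and Col17a1 became 0.0061 and -0.17 with the epithelial covariate, 0.044 and -0.005 without the third samples, and 0.011 and -0.008 without normal fibroblasts 3, within ranges of -0.30 to 0.011 and -0.008 to 1.19 when 1 sample was left out. There Dst became -1.32 with its next brightest probe set (adjusted p = 0.0206) and -0.0061 with the mean of its probe sets, which gave -0.19 for Dst between normal layers and 0.011 for Lama5 between dysplasia layers.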
